A study of Mus musculus with 24 samples.

Results

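Tissues stimulated with light at 4 Hz were compared with unstimulated tissues of the same 60-min experiment. The members were taken by their labels, as the 6 libraries at 4 Hz and the 6 unstimulated controls, 12 of the 24 libraries analysed here. All libraries are of C2C12, an established line of mouse myoblasts, cells that fuse into contracting myotubes, and all carry the genotype ChR2::tdTomato, in which channelrhodopsin-2, a cation channel opened by blue light, is tagged with a red fluorescent protein. Tissues of every group were grown on fibrin gels and differentiated in horse serum with insulin-like growth factor 1. The stimulated tissues received light pulses for 60 min each day at 1, 4, or 10 Hz, and the controls received none. The design limits the controls as a model of rest, since the study describes spontaneous twitch in all conditions, and the replicates are cultures of 1 cell line. The labels give poly(A) selection for the libraries and add ribodepletion for low-input samples, without saying which samples these were.

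Contraction starts when depolarization of the muscle membrane releases calcium from the sarcoplasmic reticulum, and repeated contraction is known to switch on immediate early genes and later to alter metabolic and contractile genes. Myogenin and MyoD, the basic helix-loop-helix factors of muscle, bind E-boxes in muscle promoters, are high in forming fibers, and are known to be held down in active adult muscle. FoxO factors drive the muscle ubiquitin ligases, and the growth of a fiber needs ribosomes, whose RNA is made by polymerase I.

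Levels are given as counts per 1000000 (CPM), computed from the deposited estimated counts and scaled between libraries by TMM, and errors are SD over 6 libraries unless SE is named. The log2(fold change) is 4 Hz minus control, and each adjusted p comes from edgeR's quasi-likelihood test with Benjamini-Hochberg adjustment over all 13315 genes that passed the filter on low counts, of 56941 listed. A change was called where the adjusted p was under 0.05 and the log2(fold change) was beyond 0.5 in either direction. By that rule 25.1% of tested genes were changed, 12.8% upregulated and 12.3% downregulated. Changed genes had a median absolute log2(fold change) of 0.71, and 285 upregulated and 316 downregulated genes passed a 2-fold change. In 12.9% of tested genes every 4 Hz library lay above every control, and in 14.7% every 4 Hz library lay below. With limma on log2(TPM + 1) the split was 333 upregulated and 3166 downregulated, with all genes at a median of -0.21 on that scale and of 0.06 on the TMM scale, so lists are described by their median minus that of all tested genes. Of 12102 protein-coding genes tested, 1414 were upregulated and 1563 downregulated, whereas 172 long noncoding RNAs of 604 tested were upregulated and 48 downregulated. The paper names a directional library kit, but the strand setting of the counting is not given in the sources used here. Of the 159 genes named by rule, 113 overlap a gene on the opposite strand, whose reads may be among their counts. The share of such genes among all tested genes is not given.

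The 2 groups of libraries also differed in their content of short RNAs and RNAs without a poly(A) tail. Whether this came with the stimulation or with the library preparation cannot be told apart here. Total estimated counts were 10474932 to 16749526 in the controls and 8132175 to 13400006 at 4 Hz (exact two-sided permutation test of the means, p = 0.071). Rn7sk, a small nuclear RNA without a poly(A) tail, lay at 2.22 to 8.13 CPM in the controls and at 16.8, 22.7, and 44.6 CPM in 4 Hz replicates 1, 3, and 4, but at 6.09, 7.47, and 7.91 CPM in 4 Hz replicates 2, 5, and 6. Genes with transcripts under 1000 bases took 3.55% to 4.10% of counts in the controls and 4.30% to 8.35% at 4 Hz. The 1 Hz libraries shared this, with Rn7sk at 4.56 to 29.7 CPM (median 14.5) and 3.57% to 6.93% of counts in such genes. At 10 Hz the values were 3.19 to 11.0 CPM (median 3.75) and 3.58% to 4.58%. For these reasons each result below was also computed with offsets that remove the trends with GC content and length within each library, and with 4 Hz replicates 2, 5, and 6 as the only stimulated libraries. The first left 10.6% of genes upregulated and 11.7% downregulated, and the second, with fewer libraries, 6.3% and 9.01%. Counts of a list under these 2 fits are given at least where 3 or more changed genes were gained or lost in 1 direction. The part of the short and poly(A)-free RNAs in the results was not tested otherwise. Defining markers of skeletal muscle were present, with all 10 tested and a summed TPM of 18100 to 22800 in the controls and 16000 to 20400 at 4 Hz. No marker of adipocytes or endothelium passed the filter, and their summed TPM was at most 1.34 and 1.08 in any of the 12 libraries. Summed TPM in the controls and at 4 Hz was 634 to 960 and 429 to 742 for smooth muscle markers (5 of 6 tested, 1 upregulated), 74.7 to 103 and 56.7 to 94.3 for macrophage and blood markers (1 of 6 tested, 0 changed), and 42.3 to 65.7 and 48.6 to 87.9 for heart muscle markers (3 of 6 tested, 1 upregulated). It was 147 to 197 and 151 to 247 for fibroblast markers, at most 24.4 for bone and cartilage, and at most 7.36 for neurons and Schwann cells. The part of such cells in the results was not tested. In bulk RNA, fewer cells of a type and less RNA per cell cannot be told apart.

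The most clearly downregulated gene was Myog (ENSMUSG00000026459), which encodes myogenin and lies at GRCm39 chromosome 1, positions 134217707 to 134220287. It was read at 459, 590.0 and 599 CPM in the controls (lowest, median and highest library) and 193, 203 and 217 CPM at 4 Hz. Every stimulated library was below every control, and the stimulated libraries varied little among themselves. Myog fell 2.76-fold, with a log2(fold change) of -1.47 ± 0.0733 (SE) and an adjusted p of 1.54e-13. Ubtf (ENSMUSG00000020923), the upstream binding factor that assembles polymerase I on ribosomal RNA genes, lies at chromosome 11, positions 102195386 to 102210568, and was read at 176, 186 and 202 CPM in the controls (lowest, median and highest library) and 60.3, 66.3 and 82.2 CPM at 4 Hz. It too had no overlap between the groups. Its log2(fold change) was -1.43 ± 0.0807 (SE), with an adjusted p of 1.05e-12.

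On the upregulated side the smallest p belonged to Klf7 (ENSMUSG00000025959), a Krüppel-like transcription factor at chromosome 1, positions 64068606 to 64161508. Klf7 was read at 31.3, 34.8 and 40.0 CPM in the controls (lowest, median and highest library) and 75, 79.1 and 91.2 CPM at 4 Hz. The lowest stimulated library was well above the highest control. It rose 2.3-fold, with a log2(fold change) of 1.20 ± 0.0781 (SE) and an adjusted p of 1.60e-11. Cited2 (ENSMUSG00000039910), which binds the coactivators CBP and p300 and restrains hypoxia-inducible factors, lies at chromosome 10, positions 17598966 to 17601792. It was read at 70.1, 84.4 and 99.6 CPM in the controls (lowest, median and highest library) and 189, 219 and 277 CPM at 4 Hz. Its groups were apart as well, and its log2(fold change) was 1.42 ± 0.10 (SE), with an adjusted p of 9.07e-11.

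The promoters of these 4 genes are shown because they lead each direction and because E-boxes are the sites of the myogenic factors. Sequences are from RefSeq on GRCm38.p6, another build than that of the gene positions above, and run from 250 bases before to 50 bases after the start of the gene, on the strand of the gene. Capitals mark every CANNTG, the E-box, which reads as an E-box on both strands. They are Myog at chr1:134289754-134290053 on the plus strand, Ubtf at chr11:102320813-102321112 on the minus strand, Klf7 at chr1:64121340-64121639 on the minus strand, and Cited2 at chr10:17722978-17723277 on the plus strand.
Myog: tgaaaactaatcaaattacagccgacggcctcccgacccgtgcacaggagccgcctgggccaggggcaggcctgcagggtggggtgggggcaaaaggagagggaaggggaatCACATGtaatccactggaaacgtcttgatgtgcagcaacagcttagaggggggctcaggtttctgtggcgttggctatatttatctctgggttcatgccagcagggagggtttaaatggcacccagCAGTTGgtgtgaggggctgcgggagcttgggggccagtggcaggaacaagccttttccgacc
Ubtf: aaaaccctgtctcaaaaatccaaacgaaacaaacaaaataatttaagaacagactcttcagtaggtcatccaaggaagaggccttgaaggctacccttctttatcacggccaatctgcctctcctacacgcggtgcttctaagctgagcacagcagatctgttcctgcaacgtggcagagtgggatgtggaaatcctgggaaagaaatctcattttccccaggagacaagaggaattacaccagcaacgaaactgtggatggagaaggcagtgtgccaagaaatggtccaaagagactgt
Klf7: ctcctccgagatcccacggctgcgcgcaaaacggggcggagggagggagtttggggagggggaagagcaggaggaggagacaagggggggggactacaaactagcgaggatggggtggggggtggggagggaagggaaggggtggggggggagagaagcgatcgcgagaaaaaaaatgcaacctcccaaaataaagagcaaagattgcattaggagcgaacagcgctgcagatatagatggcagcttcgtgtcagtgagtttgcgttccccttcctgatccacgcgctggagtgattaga
Cited2: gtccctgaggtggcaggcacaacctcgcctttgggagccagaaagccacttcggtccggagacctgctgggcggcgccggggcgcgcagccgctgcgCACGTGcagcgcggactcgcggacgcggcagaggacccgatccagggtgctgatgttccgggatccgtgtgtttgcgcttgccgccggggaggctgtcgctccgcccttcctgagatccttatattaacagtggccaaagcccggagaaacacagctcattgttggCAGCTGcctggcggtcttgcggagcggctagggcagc
The Myog promoter holds CACATG 138 bases and CAGTTG 12 bases before the start, and that of Cited2 holds CACGTG 153 bases before and CAGCTG 13 bases after it. Those of Ubtf and Klf7 hold none in this window, and Ubtf has 6 starts in the table, of which 1 is shown. Over the 9901 tested genes with a promoter in the table, 62.7% held CANNTG, compared with 64.5% of upregulated and 60.3% of downregulated genes. The letters CAGCTG, bound by myogenic factors, were found on either strand in 15.2% of all, 15.2% of upregulated, and 14.1% of downregulated genes. CCAAT was found in 39.4%, 43.3%, and 35.2%, and GTAAACA, a forkhead motif, in 2.38%, 2.78%, and 2.13%. TATAAA was found in 7.22%, 8.82%, and 6.64%, GGGCGG in 64.9%, 61.1%, and 64.8%, TGACG in 32.2%, 30.9%, and 33.0%, and CACGTG, which is also a CANNTG, in 10.4%, 9.80%, and 11.4%. A match in these windows is a description of letters and not a bound site.

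**Figure D1:**
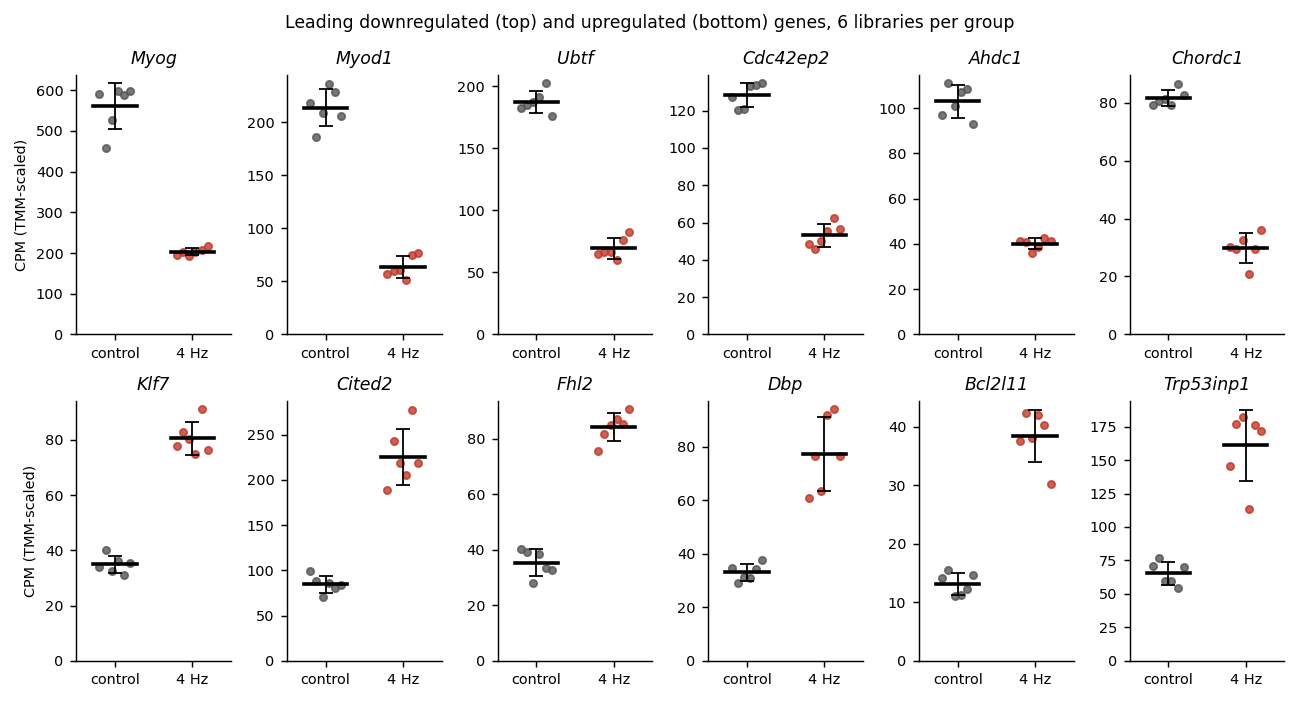
Level of the 6 downregulated (top) and 6 upregulated (bottom) protein-coding genes that were first by p, in CPM (vertical axes from 0), with 1 point per library, the mean as a line, and SD as error bars for 6 control and 6 4 Hz libraries. The groups are apart in every panel, for instance Myog at 203 CPM at 4 Hz against 561 CPM in the controls, and Cited2 at 226 against 84.4 CPM.

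Bcl2l11, which encodes the pro-apoptotic protein BIM, was read at 11, 13.2 and 15.5 CPM in the controls (lowest, median and highest library) and 30.3, 39.2 and 42.3 CPM at 4 Hz, which is a change of 1.54 on the log2 scale (adjusted p = 7.38e-10). Trp53inp1, a p53-induced nuclear protein, was read at 54.4, 65.2 and 77 CPM in the controls (lowest, median and highest library) and 113, 174 and 182 CPM at 4 Hz, a change of 1.30 (adjusted p = 1.57e-09). Fhl2, a LIM-domain protein of the sarcomere and nucleus, was read at 28.1, 36 and 40.2 CPM in the controls (lowest, median and highest library) and 75.7, 85.1 and 90.5 CPM at 4 Hz, a change of 1.25 (adjusted p = 9.07e-11). In all 3 genes the groups were apart, and the control libraries lay close together. Creb5, a factor that binds cyclic AMP response elements, rose from 23.9 ± 1.42 to 69 ± 9.99 CPM, and Ppp1r10, which anchors protein phosphatase 1 in the nucleus, from 119.6 ± 9.39 to 221 ± 9.2 CPM. Inka2, an inhibitor of the kinase PAK4, rose from 8.84 ± 0.817 to 21.4 ± 2.35 CPM. Of the genes named for their fold change, among protein-coding genes with groups apart and an average log2 CPM of at least 1, Il6 rose 5.74-fold and Fosb 4.66-fold, Ptx3, a secreted pentraxin, 3.89-fold, Ypel4 4.36-fold, Arid5b, a DNA-binding chromatin cofactor, 4.0-fold, and 9130008F23Rik 5.29-fold.

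Among the other leading downregulated genes Hmga2, an architectural chromatin protein of growing cells, was read at 36.8, 40.4 and 49.7 CPM in the controls (lowest, median and highest library) and 4.96, 8.21 and 10.6 CPM at 4 Hz, and fell 5.21-fold (log2(fold change) -2.38 ± 0.17 (SE), adjusted p = 1.31e-10). Kat2a, the histone acetyltransferase GCN5, fell from 47.7 ± 3.72 to 22.7 ± 1.4 CPM, and Ahdc1, an AT-hook protein, from 103 ± 7.16 to 40.1 ± 2.43 CPM. Cdc42ep2, an effector of the GTPase Cdc42, fell from 128 ± 6.56 to 53.1 ± 6.21 CPM, and Chordc1, a cochaperone of HSP90, from 81.5 ± 2.76 to 29.9 ± 5.1 CPM. These genes lay below the controls in 6 of 6 stimulated libraries. Ephb2, a receptor of ephrins, fell from 26.8 ± 2.04 to 6.82 ± 1.27 CPM, and Tshz1, a zinc finger homeobox factor, from 74.5 ± 6.18 to 35.8 ± 3.9 CPM. Ngfr, the p75 neurotrophin receptor, fell from 5.96 ± 1.69 to 0.811 ± 0.305 CPM, Sema7a, a membrane-anchored semaphorin, from 64.5 ± 16.1 to 12.2 ± 2.16 CPM, and Tnfrsf25, a death receptor, from 4.42 ± 0.629 to 0.845 ± 0.185 CPM. Of the other low genes, Cdca7 fell from 5.29 ± 1.64 to 0.911 ± 0.493 CPM and Tmem95 from 4.25 ± 2.32 to 0.94 ± 0.351 CPM. Gemin4, a subunit of the SMN complex, was read at 13.5, 15.5 and 19.2 CPM in the controls (lowest, median and highest library) and 0, 0 and 8.01 CPM at 4 Hz, so most of its stimulated libraries held no count. Its 4 Hz replicates 1 and 5 held 8.01 and 6.42 CPM, and 1 Hz replicate 1 also held 0. The cause of this all-or-none pattern was not tested. Dnm3os, a noncoding RNA from the strand opposite Dnm3 that carries microRNAs of muscle and connective tissue, was among the steepest at 4.02 ± 1.31 and 0.342 ± 0.266 CPM (log2(fold change) -3.50, adjusted p = 1.03e-07).

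**Figure D2:**
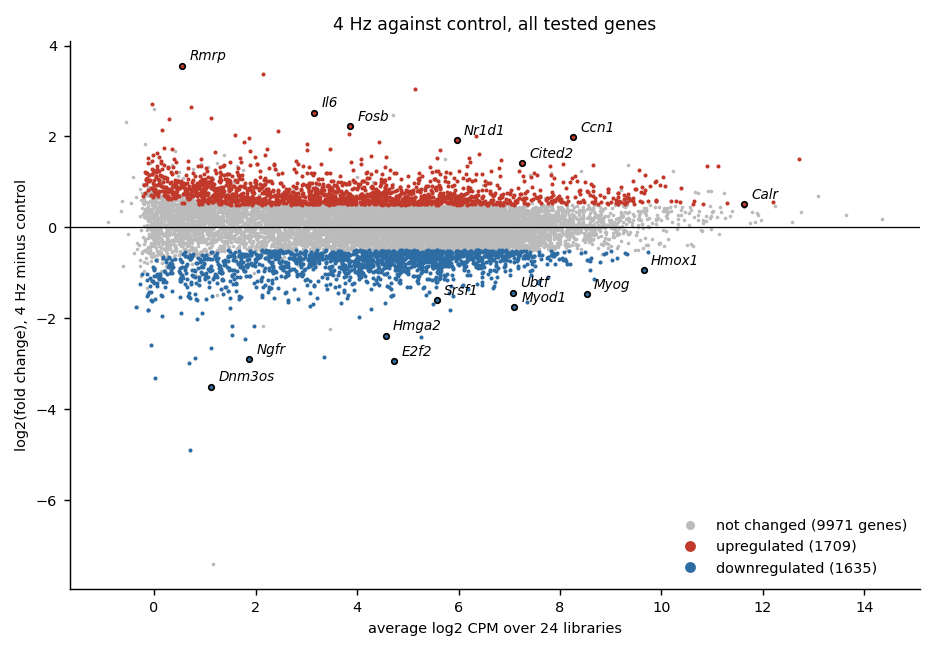
The log2(fold change) of each tested gene (4 Hz minus control, vertical axis) against its average log2 CPM over 24 libraries (horizontal axis), with 1709 upregulated genes in red, 1635 downregulated genes in blue, and the others in gray. Changed genes are found at every level, and the named genes with the largest changes, such as Il6, E2f2, and Dnm3os, are of low to middle abundance.

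Of 26 myogenic regulators tested, 7 were downregulated (26.9% compared with 12.3% of all tested genes) and 2 upregulated (7.69% compared with 12.8%). Besides Myog, the downregulated factors included Myod1, which starts the muscle program, at 214 ± 17.8 CPM and, with stimulation, 63.4 ± 10.2 CPM, and Pax7, a marker of satellite cells, at 6.06 ± 0.894 and 2.09 ± 0.391 CPM. Six4, a homeobox factor that acts above the MyoD family, fell from 11.7 ± 0.749 to 7.72 ± 0.917 CPM. Mef2a, which works beside the MyoD family, fell from 308 ± 9.98 to 190.1 ± 26 CPM, and Cdon, a receptor that promotes fusion, from 143 ± 13.2 to 73 ± 7.23 CPM. In the other direction Eya1, a coactivator of homeobox factors, rose from 6.28 ± 0.842 to 11.7 ± 1.9 CPM and Myf5, the early factor of myoblasts, from 12.6 ± 1.83 to 28.3 ± 2.08 CPM. All 9 had their libraries apart and kept an adjusted p under 0.05 with offsets and with 4 Hz replicates 2, 5, and 6. The fusogens Mymk and Mymx did not pass, with log2(fold change) values of 0.03 and 0.21, nor did the inhibitors Id1 and Id3, at -0.15 and 0.42. Pax3 was not tested for its low count.

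Of 52 sarcomere and Z-disc genes tested, 5 were upregulated (9.62% compared with 12.8% of all) and 2 downregulated (3.85% compared with 12.3%). In 45 of the 52 the log2(fold change) was positive, 17 were higher at an adjusted p under 0.05 irrespective of fold, and their median log2(fold change) was 0.18 above that of all tested genes, which was 0.06. Synpo2l, a Z-disc partner of alpha-actinin, fell from 221 ± 13.9 to 122 ± 8.95 CPM (log2(fold change) -0.86, adjusted p = 3.78e-09), with all stimulated libraries below the controls. Lmod2, which lengthens thin filaments, rose from 105 ± 12.7 to 160.0 ± 5.26 CPM, and Csrp3, a stretch-responsive LIM protein, from 66.7 ± 5.98 to 109.7 ± 22.1 CPM. Csrp3, Mylpf, Tnni2, and Myl3 lost the call with 4 Hz replicates 2, 5, and 6, where their adjusted p was 0.0816 to 0.283, and 1 of the list, Lmod2, was then upregulated. With offsets 1 was upregulated, Csrp3. Myh2, the myosin of fast oxidative fibers, fell from 70.0 ± 12.1 to 44.1 ± 5.9 CPM (adjusted p = 0.0067, and 0.0815 with 4 Hz replicates 2, 5, and 6, where the log2(fold change) was -0.60 compared with -0.66). Its share of the summed TPM of 6 myosin heavy chains was 3.81% ± 0.415 in the controls and 2.08% ± 0.334 at 4 Hz, without overlap. The other chains were not changed. The slow chain Myh7 had shares of 24% ± 1.95 and 27.6% ± 2.11, and perinatal Myh8 of 16.9% ± 0.645 and 19% ± 1.28. Myh1 had shares of 28.1% ± 1.74 and 25.1% ± 0.762, and the shares of all chains but Myh2 overlapped between the groups. In calcium handling 1 of 30 genes was upregulated and 1 downregulated (3.33% each, below the 12.8% and 12.3% of all). The downregulated gene was Nfatc1, a calcineurin-dependent factor, at 28.2 ± 6.66 and 17.2 ± 5.78 CPM, whose libraries overlapped and which had an adjusted p of 0.275 with replicates 2, 5, and 6. The upregulated gene was Mrln, a micropeptide that restrains the calcium pump, at 1.83 ± 0.617 and 3.07 ± 0.907 CPM, and this call was lost when any of 6 single libraries was left out, for instance at an adjusted p of 0.0957 without 4 Hz replicate 3.

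At the neuromuscular synapse 3 of 19 genes were upregulated (15.8%, near the 12.8% of all tested genes) and 1 downregulated (5.26% compared with 12.3%). Ache, the acetylcholinesterase that ends transmission, was read at 9.21, 11.4 and 13.2 CPM in the controls (lowest, median and highest library) and 17, 19 and 19.6 CPM at 4 Hz. The stimulated libraries were all above the controls (log2(fold change) 0.75 ± 0.099 (SE), adjusted p = 1.18e-06). Colq, the collagen tail that anchors this enzyme, rose from 13 ± 1.74 to 18.7 ± 1.22 CPM, and Gadd45a, a stress gene of denervated muscle, from 437 ± 51.1 to 669 ± 78.9 CPM. Runx1, another gene of denervated muscle, fell from 196 ± 10.5 to 123 ± 18.7 CPM. With offsets or with 4 Hz replicates 2, 5, and 6, 2 were upregulated. Subunits of the acetylcholine receptor did not pass, with 0.04 for Chrna1, 0.01 for Chrnb1, and 0.21 for the embryonic subunit Chrng on the log2(fold change) scale. Of 21 channel and pump genes, 5 were downregulated (23.8%) and 1 upregulated (4.76%). The upregulated gene was Kcnj2, an inward rectifier that sets the resting potential, which rose from 2.88 ± 0.607 to 6.0 ± 0.643 CPM. Kcnk5, a background channel, fell from 16.9 ± 1.62 to 11.3 ± 0.932 CPM, and Kcnj12, another inward rectifier, from 3.21 ± 0.489 to 2.06 ± 0.243 CPM. With offsets 3 of these genes were downregulated, and 2 were with 4 Hz replicates 2, 5, and 6.

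Of 30 immediate early and activity-induced genes, 11 were upregulated (36.7% compared with 12.8% of all tested genes) and 2 downregulated (6.67% compared with 12.3%). Il6, the interleukin that contracting muscle releases, was read at 1.42, 3.0 and 3.67 CPM in the controls (lowest, median and highest library) and 12.2, 15.1 and 24.5 CPM at 4 Hz. Its lowest stimulated library was above the highest control, with a log2(fold change) of 2.52 ± 0.30 (SE) and an adjusted p of 5.29e-07. The nuclear receptor Nr4a1 rose from 24.3 ± 5.5 to 79.7 ± 13 CPM, and the AP-1 subunit Fosb from 5.88 ± 3.27 to 27.9 ± 8.8 CPM. Maff, a small Maf factor, rose from 149 ± 9.64 to 239 ± 20.6 CPM, Btg2, an antiproliferative factor, from 42.4 ± 14.7 to 116 ± 27.1 CPM, and Csrnp1 from 40.2 ± 21.6 to 116 ± 28 CPM. These 6 genes had all stimulated libraries above the controls. Egr2, Ier2, Jun, Klf6, and Atf3 were also upregulated, with overlapping libraries. Fos and Egr1, the classic members of the group, had values of 1.50 and 1.25 but did not pass (adjusted p = 0.152 and 0.0865). Fosl1, an AP-1 subunit of growing cells, fell from 189 ± 22.1 to 122 ± 16.7 CPM, and the cytokine Lif from 9.04 ± 1.96 to 4.5 ± 0.324 CPM. With 4 Hz replicates 2, 5, and 6, 8 of the list were upregulated and 2 downregulated. Ccn1 and Ccn2, matricellular proteins of the YAP response, rose from 138 ± 85.5 to 545 ± 148 CPM and from 585 ± 107 to 1183 ± 280.1 CPM.

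The circadian clock list had 9 of 19 genes upregulated (47.4% compared with 12.8% of all tested genes) and 4 downregulated (21.1% compared with 12.3%). Its median was 0.43 above that of all tested genes. Dbp, an output factor of the clock, was read at 29.2, 32.9 and 37.8 CPM in the controls (lowest, median and highest library) and 61, 76.6 and 94 CPM at 4 Hz. Nr1d1, which encodes the repressor REV-ERB alpha, was read at 17.5, 30.9 and 36.3 CPM in the controls (lowest, median and highest library) and 51.8, 108 and 172 CPM at 4 Hz. Both genes were apart between the groups, with log2(fold change) values of 1.23 ± 0.0921 and 1.92 ± 0.36 (SE) and adjusted p of 1.87e-10 and 1.99e-04. The second REV-ERB, Nr1d2, rose from 46.3 ± 7.96 to 97.2 ± 14.2 CPM, the receptor Rora from 5.72 ± 0.593 to 10.5 ± 1.6 CPM, and the repressor Nfil3 from 51.3 ± 4.68 to 94.2 ± 17.5 CPM. All 3 period genes were upregulated, Per1 from 145 ± 8.56 to 232 ± 43.8 CPM, Per2 from 19.3 ± 3.06 to 27.6 ± 4.8 CPM, and Per3 from 12.6 ± 1.17 to 18.7 ± 1.64 CPM, as was the repressor Ciart. The activators Arntl and Clock fell from 16.6 ± 1.26 to 11 ± 0.747 CPM and from 119 ± 6.27 to 76.1 ± 13.7 CPM, and Bhlhe40 and Cry1, repressors of the same loop, from 394 ± 74.5 to 227 ± 48.6 CPM and from 45.7 ± 5.07 to 31.7 ± 6.4 CPM. Tef, Hlf, Npas2, and Bhlhe41 did not pass. Cry2 was below the fold threshold, at 0.49 (adjusted p = 4.15e-07). The same number, 9, was upregulated with offsets and with 4 Hz replicates 2, 5, and 6.

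In the list of FoxO signalling and muscle ubiquitin ligases 8 of 18 tested genes were upregulated (44.4% compared with 12.8% of all) and 0 downregulated. The other 10 were not called, of which 5 were lower at an adjusted p under 0.05 but short of the fold threshold. In 3 of the 18 every stimulated library was below the controls, compared with 14.7% of all tested genes. Foxo1 was read at 27.9, 30.8 and 36.3 CPM in the controls (lowest, median and highest library) and 52.1, 57.6 and 64.1 CPM at 4 Hz, and Foxo3 at 80.4, 90.8 and 99.2 CPM in the controls (lowest, median and highest library) and 125, 150.3 and 163 CPM at 4 Hz. Neither gene had overlap between the groups. Their log2(fold change) values were 0.90 ± 0.0835 and 0.72 ± 0.0776 (SE), with adjusted p of 8.02e-09 and 7.28e-08. Of the ubiquitin ligases, Fbxo32, known as atrogin-1, rose from 13.4 ± 3.62 to 23.8 ± 1.47 CPM, Fbxo30 from 86.2 ± 14.5 to 135 ± 16.2 CPM, and Cblb from 25.1 ± 3.42 to 42.4 ± 4.79 CPM. The glucocorticoid and FoxO target Klf15 rose from 2.99 ± 1.04 to 5.47 ± 0.87 CPM. Irs1 and Irs2, adaptors of the insulin receptor, rose from 22.1 ± 5.2 to 32.6 ± 6.13 CPM and from 10.7 ± 5.53 to 31.7 ± 8.04 CPM and had overlapping libraries. Trim63, or MuRF1, the other classic ligase, had a log2(fold change) of -0.29 and Fbxo40, which targets Irs1, of -0.44, both short of the fold threshold. Mstn was not tested for its low count. With offsets 9 were upregulated, and 6 with 4 Hz replicates 2, 5, and 6. In the insulin-like growth factor axis itself, 3 of 16 were upregulated (18.8% compared with 12.8% of all). These were Irs1, Irs2, and Grb10, 0 of which were called with replicates 2, 5, and 6. Grb10, an adaptor that restrains the receptor, also lost the call without 4 Hz replicate 3 (adjusted p = 0.052, log2(fold change) 0.46). Igf1r, Igf2, and H19 did not pass, at 0.42, -0.21, and 0.19.

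Sterol and fatty acid synthesis had 8 of 29 genes upregulated (27.6% compared with 12.8% of all tested genes) and 0 downregulated. Insig1, the sterol sensor that retains SREBP factors, was read at 47.5, 70.4 and 91.6 CPM in the controls (lowest, median and highest library) and 138, 154 and 176 CPM at 4 Hz. Stard4, which carries cholesterol between membranes, was read at 35.1, 37.7 and 48.6 CPM in the controls (lowest, median and highest library) and 68.4, 72.9 and 93.5 CPM at 4 Hz. The groups were apart in both, with log2(fold change) values of 1.14 ± 0.12 and 0.92 ± 0.0936 (SE) and adjusted p of 2.95e-08 and 2.95e-08. Srebf1, the SREBP of fatty acid synthesis, rose from 25.2 ± 1.17 to 39.5 ± 4.48 CPM. The enzymes of the pathway that passed were Hmgcs1 (0.53), Pmvk (0.59), Mvd (0.69), Fdft1 (0.66), and Msmo1 (0.76), each on the log2(fold change) scale. The fatty acid enzymes Scd1, Acly, and Acaca did not pass, with values of 0.16, -0.26, and -0.15. The count was 9 with offsets and 8 with 4 Hz replicates 2, 5, and 6. In fatty acid oxidation 2 of 26 were upregulated (7.69%) and 4 downregulated (15.4%, near the 12.3% of all tested genes). Angptl4, an inhibitor of lipoprotein lipase, fell from 169.7 ± 33.8 to 82.1 ± 26.1 CPM, while the lipase Lpl rose from 44.8 ± 7.72 to 69 ± 9.25 CPM. The uncoupling proteins Ucp2 and Ucp3 fell from 33.1 ± 4.06 to 21.9 ± 3.35 CPM and from 5.26 ± 1.15 to 2.94 ± 0.505 CPM. Cpt1a, which admits fatty acids to mitochondria, fell from 31.7 ± 6.75 to 20.9 ± 3.27 CPM with overlap, and Echs1, an enzyme of beta-oxidation, rose from 40.2 ± 5.74 to 62.9 ± 7.46 CPM. With replicates 2, 5, and 6 as the stimulated libraries, 1 was upregulated and 3 were downregulated.

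Stress pathways split by gene. Of 30 antioxidant genes and NRF2 targets, 7 were downregulated (23.3% compared with 12.3% of all tested genes) and 3 upregulated (10.0% compared with 12.8%). Gclc, the catalytic subunit of the enzyme that limits glutathione synthesis, was read at 85.5, 95.3 and 105 CPM in the controls (lowest, median and highest library) and 33.1, 38.8 and 49.3 CPM at 4 Hz. G6pdx, which supplies NADPH, was read at 33.2, 39.5 and 46.9 CPM in the controls (lowest, median and highest library) and 14.6, 16.6 and 21.1 CPM at 4 Hz. No stimulated library reached the control range in either gene, with log2(fold change) values of -1.28 ± 0.13 and -1.21 ± 0.11 (SE) and adjusted p of 2.15e-08 and 1.13e-08. The modifier subunit Gclm fell from 135 ± 10.7 to 79.5 ± 9.06 CPM and heme oxygenase Hmox1 from 1056 ± 71.4 to 552 ± 64.4 CPM, with Txnrd1 (-0.59), Gsr (-0.57), and Pgd (-0.53) also downregulated. These 7 are NRF2 targets, whereas the 3 upregulated genes, Gpx1, Gpx4, and Prdx5, encode peroxidases with short transcripts, and 0 of these 3 passed the fold threshold with offsets or with 4 Hz replicates 2, 5, and 6. Nfe2l2, which encodes NRF2, was at -0.29, short of the fold threshold. In the ATF4 list 4 of 35 were upregulated (11.4%, near the share of all tested genes) and 2 downregulated (5.71%, below it). Ddit3, the factor CHOP, rose from 116 ± 20.8 to 267 ± 80.7 CPM, Trib3, its pseudokinase target, from 118 ± 18.1 to 206 ± 32.4 CPM, Nupr1 from 119 ± 9.38 to 183 ± 24.7 CPM, and Sesn2 from 69.4 ± 8.86 to 98.8 ± 14.5 CPM. Slc7a11, the cystine importer, fell from 33.6 ± 2.01 to 13.5 ± 4.65 CPM, and Ddit4, an inhibitor of mTORC1, from 126 ± 18.3 to 82.5 ± 23.3 CPM. The aminoacyl-tRNA synthetases Tars, Nars, Lars, and Iars were at -0.41, -0.29, -0.35, and -0.46, below the fold threshold.

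Endoplasmic reticulum chaperones had a median 0.31 above that of all tested genes, but 3 of 23 passed the fold threshold. These were Xbp1, the transcription factor of the unfolded protein response, which rose from 181 ± 12.5 to 263 ± 13.3 CPM, the calcium-binding chaperone Calr, which rose from 2659.9 ± 146 to 3800.3 ± 363 CPM, and Sdf2l1, which rose from 48.1 ± 4.05 to 77.5 ± 14 CPM. In 14 of the 23 genes every stimulated library was above every control, compared with 12.9% of all tested genes. Hspa5, Hsp90b1, and P4hb stood at 0.46, 0.48, and 0.44. With replicates 2, 5, and 6, 1 of the list was called. Of 27 heat shock proteins and chaperones 2 were upregulated (7.41%) and 1 downregulated (3.7% compared with 12.3% of all). The upregulated count was 1 with offsets and 0 with replicates 2, 5, and 6. The mitochondrial chaperone Hspd1 fell from 688 ± 60.3 to 435 ± 24 CPM, and Hspb2, a small heat shock protein of muscle, rose from 37.1 ± 2.49 to 55.6 ± 8.27 CPM. Dnajb1, a cochaperone of HSP70, was called at 477 ± 267 and 1139.9 ± 279 CPM but lost the call without any of 7 single libraries (highest adjusted p of 0.0756, without control replicate 5), with a log2(fold change) of at least 1.04 in each of these fits compared with 1.26 in all 12. Among 18 p53 targets 7 were upregulated (38.9%) and 1 downregulated (5.56%). Besides Trp53inp1, the sestrin Sesn1 rose from 21.2 ± 2.31 to 34.3 ± 2.18 CPM, the death receptor Fas from 7.86 ± 1.14 to 14.6 ± 3.08 CPM, Plk2 from 207 ± 58.9 to 443 ± 66.1 CPM, and Zmat3 from 64.4 ± 8.41 to 93.4 ± 8.77 CPM, while Tigar, which slows glycolysis, fell from 24.1 ± 2.01 to 12.5 ± 1.92 CPM. Cdkn1a, the p21 inhibitor, did not pass (0.07), and Trp53 itself was at -0.49, just short of the fold threshold. Of 18 hypoxia genes 2 were upregulated (11.1%) and 1 downregulated (5.56%). P4ha2, a collagen prolyl hydroxylase, and Bnip3, a mitophagy receptor, rose from 217 ± 4.68 to 317 ± 39 CPM and from 776 ± 47.7 to 1183 ± 288 CPM. Both were under the fold threshold with replicates 2, 5, and 6. Epas1, which encodes HIF-2 alpha, was called downregulated at 2.37 ± 0.417 and 1.43 ± 0.523 CPM, but the call was lost without any of 6 single libraries (highest adjusted p of 0.0929, without 4 Hz replicate 6), with a log2(fold change) no nearer to 0 than -0.62 in these fits compared with -0.74 in all 12.

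Of 37 ribosome biogenesis genes tested, 23 were downregulated (62.2% compared with 12.3% of all) and 0 upregulated. Their median was 0.70 below that of all tested genes, and it was 0.67 below with offsets and 0.59 below with 4 Hz replicates 2, 5, and 6. Polymerase I subunits Polr1a, Polr1b, and Polr1e fell from 66.9 ± 7.33 to 30.6 ± 3.73 CPM, from 50.9 ± 5.74 to 26.2 ± 2.97 CPM, and from 17.2 ± 1.43 to 9.06 ± 1.77 CPM. Nop2, a ribosomal RNA methyltransferase, was read at 130.5, 143 and 165 CPM in the controls (lowest, median and highest library) and 51.1, 53.2 and 72.8 CPM at 4 Hz. Dkc1, the pseudouridine synthase dyskerin, was read at 54.2, 63 and 73.1 CPM in the controls (lowest, median and highest library) and 25.6, 33 and 37.4 CPM at 4 Hz. Neither overlapped between the groups, and the log2(fold change) values were -1.33 ± 0.11 and -0.98 ± 0.0965 (SE), with adjusted p of 1.24e-09 and 1.82e-08. Rrp9, a core protein of the U3 particle, fell from 41.2 ± 4.19 to 20.8 ± 2.58 CPM, and the box C/D proteins Nop56 and Nop58 from 119 ± 8.68 to 60.6 ± 11.8 CPM and from 319 ± 16.9 to 199 ± 26.4 CPM. The assembly factors Wdr12 and Bop1 fell from 42.2 ± 3.05 to 20.5 ± 2.8 CPM and from 74.9 ± 5.13 to 47.8 ± 5.37 CPM. In 29 of the 37 genes every stimulated library was below every control, compared with 14.7% of all tested genes. Npm1 and Nhp2 did not pass, with 0.04 and 0.05.

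In contrast, 57 of 79 cytosolic ribosomal protein genes were upregulated (72.2% compared with 12.8% of all) and 0 downregulated. In 60 of the 79 every stimulated library was above the controls, compared with 12.9% of all tested genes. Rps15 was read at 711, 779 and 878 CPM in the controls (lowest, median and highest library) and 944, 1178 and 1423 CPM at 4 Hz, and Rpl10a at 430.1, 473 and 557 CPM in the controls (lowest, median and highest library) and 598, 793 and 1008 CPM at 4 Hz. Their stimulated libraries were above and more widely spread than the controls. The log2(fold change) was 0.59 for Rps15 and 0.71 for Rpl10a, with adjusted p of 1.10e-04 and 1.55e-04. These genes have short transcripts. With offsets for GC content and length 29 of them were upregulated, and with 4 Hz replicates 2, 5, and 6 only 4. The share of all counts in ribosomal protein genes was 4.82% to 5.58% in the controls and 5.85% to 8.15% at 4 Hz.

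**Figure D3:**
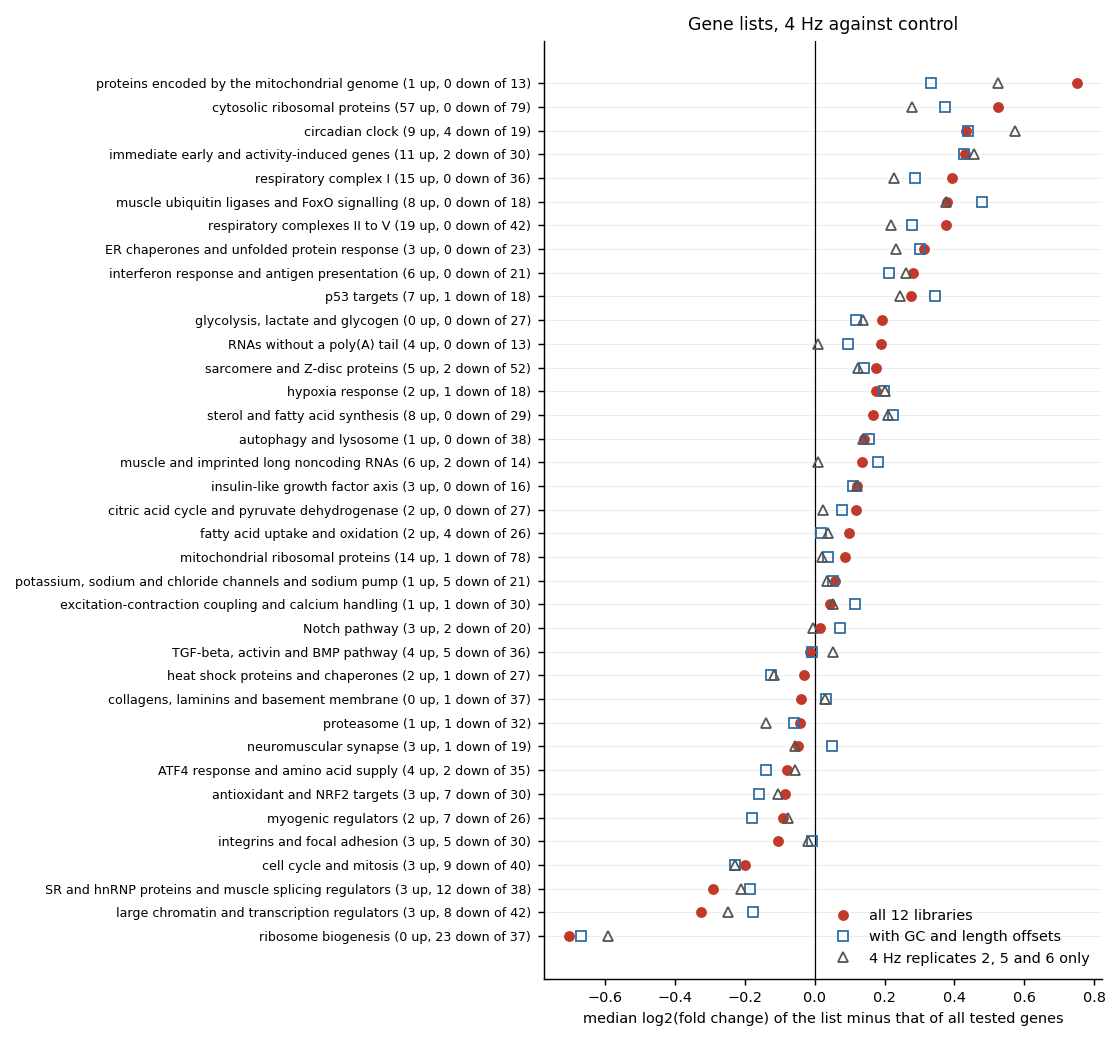
Median log2(fold change) of 37 gene lists minus that of all tested genes (horizontal axis), with circles for all 12 libraries, squares with GC and length offsets, and triangles with 4 Hz replicates 2, 5, and 6 as the only stimulated libraries, and counts of changed genes in the labels. Ribosome biogenesis lies lowest under all 3, from -0.70 to -0.59, while cytosolic ribosomal proteins move from 0.53 to 0.37 and 0.28.

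For the respiratory chain, as for ribosomal proteins, the count depended on the libraries. In complex I, 15 of 36 genes were upregulated (41.7% compared with 12.8% of all) and 0 downregulated, and in complexes II to V 19 of 42 (45.2%) and 0. With offsets these counts were 10 and 11, and with 4 Hz replicates 2, 5, and 6 both were 0. The accessory subunit Ndufa11 rose from 34.7 ± 2.87 to 51.7 ± 7.39 CPM, and Cox6a1, a subunit of cytochrome oxidase, from 96.2 ± 6.72 to 142 ± 18.8 CPM, with their libraries apart. Ndufa7 and Uqcrh, a hinge protein of complex III, rose from 84.6 ± 10.9 to 156 ± 49.9 CPM and from 167 ± 17.7 to 324 ± 117 CPM, with an SD at 4 Hz several times that of the controls. Of the 13 proteins encoded by the mitochondrial genome, 1 was called (7.69%). It was mt-Nd1, at 1180.2 ± 276 CPM without stimulation and 2997 ± 3025 CPM with it, and it had a log2(fold change) of 0.61 and an adjusted p of 0.234 without 4 Hz replicate 3. That library held 7.89% of its counts in mitochondrial protein genes, compared with 0.461% in 4 Hz replicate 1 and 1.25% to 2.52% in the controls. Of 78 mitochondrial ribosomal protein genes 14 were upregulated (17.9%) and 1 downregulated (1.28% compared with 12.3% of all). These counts were 8 and 1 with offsets and 0 and 1 with replicates 2, 5, and 6. The downregulated gene, Mrps17, fell from 44.5 ± 2.28 to 30.4 ± 4.9 CPM. In the citric acid cycle 2 of 27 were upregulated (7.41%). Pdp1, the phosphatase that activates pyruvate dehydrogenase, was read at 30.3, 32.6 and 38.5 CPM in the controls (lowest, median and highest library) and 56, 60.9 and 73.3 CPM at 4 Hz. Its groups were apart, and it passed in all 3 fits (log2(fold change) 0.89, 0.97 with offsets, and 0.86 with replicates 2, 5, and 6). No gene of 27 in glycolysis, lactate, and glycogen passed both thresholds. Pfkp was nearest by p (0.37, adjusted p = 7.02e-05) and passed with offsets (0.52), and hexokinase Hk2 was at -0.42. In the proteasome 1 of 32 was upregulated, Psma7, and 1 downregulated (3.12% each). The downregulated gene was the ubiquitin receptor Adrm1, which fell from 138 ± 9.57 to 96 ± 5.83 CPM. Of 38 autophagy and lysosome genes 1, Gabarapl2, was upregulated (2.63%), and it lost the call with replicates 2, 5, and 6 (adjusted p = 0.159).

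Of 38 SR proteins, hnRNPs, and muscle splicing regulators 12 were downregulated (31.6% compared with 12.3% of all tested genes) and 3 upregulated (7.89% compared with 12.8%). Hnrnpm was read at 122, 143 and 166 CPM in the controls (lowest, median and highest library) and 60.5, 65.6 and 79.5 CPM at 4 Hz. Srsf1, a founding SR protein, was read at 53.5, 71.7 and 79.2 CPM in the controls (lowest, median and highest library) and 11.2, 22.6 and 30.9 CPM at 4 Hz. Both had all stimulated libraries below the controls, with log2(fold change) values of -1.08 ± 0.0908 and -1.59 ± 0.17 (SE) and adjusted p of 1.57e-09 and 6.81e-08. Hnrnpu fell from 503 ± 49.5 to 264 ± 27.3 CPM, Luc7l3 from 47.3 ± 4.78 to 22.5 ± 3.3 CPM, and the muscle regulators Celf1 and Mbnl3 from 160.5 ± 9.55 to 106 ± 13.8 CPM and from 6.48 ± 1.12 to 4.44 ± 1.02 CPM. Tra2a, Srsf11, and Rsrp1 were upregulated, with values of 0.61, 0.59, and 1.02. With offsets 8 were downregulated, and 9 with 4 Hz replicates 2, 5, and 6. Among 42 large chromatin and transcription regulators 8 were downregulated, a share above the 12.3% of all tested genes. In this list 3 were upregulated, a share below the 12.8% of all. The chromatin remodeling subunits Arid1a and Arid2 fell from 99.4 ± 10.6 to 54.6 ± 8.09 CPM and from 49 ± 4.49 to 22.1 ± 3.32 CPM, the methyltransferase Nsd1 from 27.3 ± 3.55 to 14.1 ± 1.46 CPM, and the acetyltransferase Ep300 from 100.1 ± 11.5 to 60.1 ± 13 CPM. Chd6, a remodeler, rose from 15 ± 2.24 to 22.3 ± 3.07 CPM, as did the demethylase Kdm6a and the remodeler Smarca2. These genes have long transcripts, and with offsets 5 were downregulated and 5 upregulated. Those shares were near the 11.7% and 10.6% of all tested genes in that fit. The downregulated count was 4 with replicates 2, 5, and 6, a share near the 9.01% of all genes tested there.

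In the cell cycle list 9 of 40 genes were downregulated (22.5% compared with 12.3% of all tested genes) and 3 upregulated (7.5% compared with 12.8%). E2f2, an activator of S phase genes, was read at 33, 43.4 and 60.7 CPM in the controls (lowest, median and highest library) and 3.58, 5.87 and 8.59 CPM at 4 Hz. The stimulated libraries lay far below the controls (log2(fold change) -2.94 ± 0.26 (SE), adjusted p = 1.38e-08). Its relative E2f1 rose from 15.9 ± 1.21 to 25.4 ± 2.68 CPM, and the inhibitor Cdkn1b, or p27, from 62.8 ± 7.62 to 119.7 ± 13.7 CPM. Ccnd1, the cyclin of G1, fell from 121 ± 14.7 to 82.1 ± 4.28 CPM. Of the mitotic genes that were downregulated, Cdc20, an activator of mitotic exit, was at 7.07 ± 1.33 and 3.98 ± 0.672 CPM, and Ccna2, Ccnb1, Plk1, and Mki67 were lower still. Cdk1, the mitotic kinase, was upregulated at 8.88 ± 1.75 and 12.8 ± 1.55 CPM. With 4 Hz replicates 2, 5, and 6, 4 of the list were downregulated and 2 upregulated. In the interferon and antigen presentation list 6 of 21 tested genes were upregulated (28.6%) and 0 downregulated. The upregulated count was 2 under offsets and 1 with replicates 2, 5, and 6. H2-D1, a class I chain, rose from 133 ± 7.1 to 189 ± 21 CPM, the peptide transporter Tap1 from 3.24 ± 0.697 to 6.26 ± 1.04 CPM, and the proteasome activator Psme1 from 16.7 ± 1.15 to 25.7 ± 5.79 CPM. The interferon regulators Irf1, Irf7, Irf9, and Stat2 did not pass, and 14 listed genes, Isg15 and Mx1 among them, were not tested for low counts.

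For the Notch, TGF-beta, and integrin lists the shares were close to those of all tested genes, 12.8% upregulated and 12.3% downregulated. The genes below are given as single values. In the Notch pathway 3 of 20 were upregulated (15%) and 2 downregulated (10.0%). Jag1, a ligand, was read at 10.5, 16.1 and 16.9 CPM in the controls (lowest, median and highest library) and 23.5, 33.5 and 35.6 CPM at 4 Hz. The groups were apart (log2(fold change) 1.06 ± 0.13 (SE), adjusted p = 4.44e-07). The receptor Notch3 rose from 55.2 ± 8.24 to 85.2 ± 9.0 CPM and the target Hes1 from 16.1 ± 3.13 to 27.2 ± 3.65 CPM, whereas the target Heyl fell from 2.21 ± 0.754 to 0.52 ± 0.335 CPM. In the TGF-beta, activin, and BMP pathway 4 of 36 were upregulated (11.1%) and 5 downregulated (13.9%). The receptors Tgfbr2 and Acvr2a fell from 156 ± 9.28 to 95.3 ± 6.77 CPM and from 36.9 ± 2.97 to 22.8 ± 5.76 CPM, while the coreceptor Tgfbr3 rose from 10.0 ± 1.36 to 16.4 ± 2.94 CPM. Of the ligands and their inhibitors, Inhba fell from 464 ± 69.8 to 291 ± 79.3 CPM, Gdf11 from 16.7 ± 1.77 to 11.3 ± 2.79 CPM, and the BMP inhibitor Grem1 from 283 ± 72.1 to 133 ± 39.3 CPM. The inhibitory Smad7 rose from 23.7 ± 7.97 to 40.9 ± 6.47 CPM with overlap. Of 30 integrin and focal adhesion genes 5 were downregulated (16.7%) and 3 upregulated (10.0%). Itgb3, the beta chain of the vitronectin and fibrin receptor, was read at 24.1, 26.6 and 33.4 CPM in the controls (lowest, median and highest library) and 56.2, 67 and 73.8 CPM at 4 Hz. Every stimulated library exceeded the controls (log2(fold change) 1.25 ± 0.11 (SE), adjusted p = 6.28e-09). The kinase Ptk2 fell from 83.8 ± 5.03 to 55.9 ± 5.34 CPM, and the crosslinkers Actn1 and Actn4 from 287 ± 38.6 to 165 ± 26.1 CPM and from 275 ± 24.5 to 184 ± 19.4 CPM. With 4 Hz replicates 2, 5, and 6, 1 of the list was downregulated. Of 37 genes of collagens and basement membranes 0 were upregulated (0.0%) and 1 downregulated (2.7%), shares well below those of all tested genes. The downregulated gene was Col1a1, at 96.8 ± 33.1 and 59.5 ± 14.6 CPM, with an adjusted p of 0.014. Its adjusted p was 0.116 with 4 Hz replicates 2, 5, and 6, where the log2(fold change) was -0.66 compared with -0.71. With offsets Lama2, Thbs1, and Dcn of this list were upregulated. Of 6 fibroblast markers Col1a1 was the 1 changed, and Dcn, Pdgfra, Dpt, and Lum had values of 0.43, 0.36, 0.37, and 0.04.

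The change varied with the length of the transcript. In the shortest eighth of genes (108 to 1850 bases) the median log2(fold change) was 0.37, with 28.5% upregulated and 3.0% downregulated. In the longest eighth it was -0.11, with 6.43% upregulated and 17.5% downregulated. The steps between fell in order, and with offsets the medians of these eighths were 0.08 and 0.04. With 4 Hz replicates 2, 5, and 6 they were 0.21 and -0.07. RNAs without a poly(A) tail were upregulated in 4 of 13 tested genes (30.8% compared with 12.8% of all), and all 4 are small structural RNAs. The upregulated count was 4 with offsets and 1 with 4 Hz replicates 2, 5, and 6. Replicates 2, 5, and 6 were singled out as those with low Rn7sk, so the fit with them is no separate check of these RNAs. Rmrp, the RNA of RNase MRP, had at most 0.467 CPM in the controls and from 0.467 to 7.76 CPM at 4 Hz, and Rpph1 0.354 ± 0.286 and 2.02 ± 1.71 CPM. Rn7sk and Rn7s1 had an SD at 4 Hz close to or above their mean, at 17.6 ± 14.7 and 62.5 ± 71.7 CPM. Rn7s1 lost the call without any of 4 single libraries (adjusted p = 0.107 without 4 Hz replicate 4). None of the 8 tested histone genes passed. Among long noncoding RNAs of muscle and imprinted regions 6 of 14 were upregulated (42.9%) and 2 downregulated (14.3%, near the 12.3% of all). Gas5 and the host genes Snhg1, Snhg8, Snhg12, and Snhg15 were among the upregulated. With offsets 3 were upregulated, and 2 were with 4 Hz replicates 2, 5, and 6. H19 and Malat1 did not pass (0.19 and 0.20). Neat1, the scaffold of paraspeckles, fell from 71.1 ± 8.08 to 45.5 ± 10.2 CPM, and lost the call with offsets (adjusted p = 0.125).

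**Figure D4:**
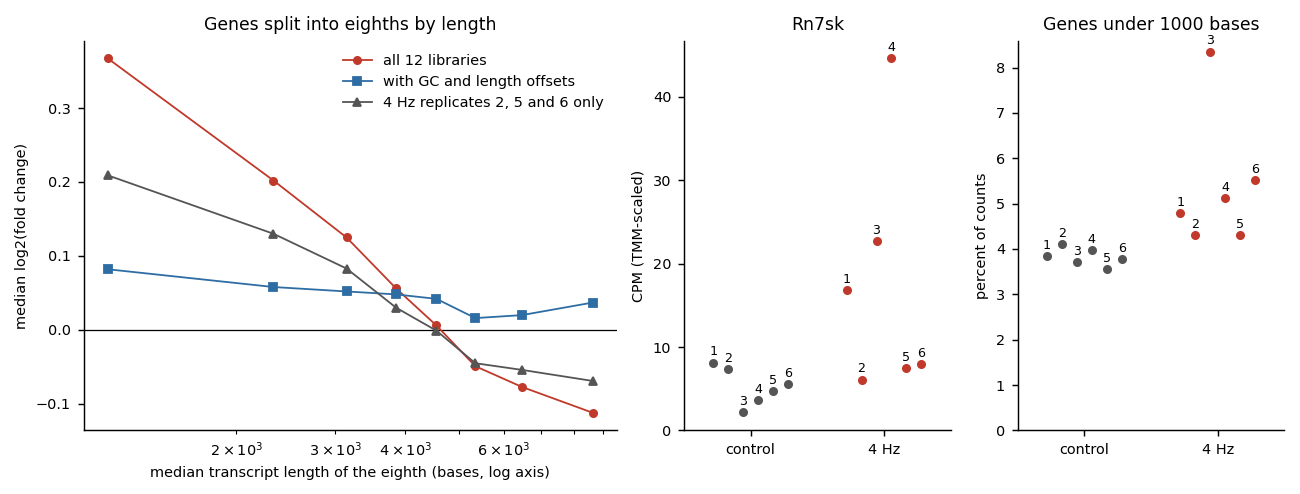
Left, median log2(fold change) of genes in eighths by transcript length (log axis, bases) in all 12 libraries, with GC and length offsets, and with 4 Hz replicates 2, 5, and 6 only. Middle and right, Rn7sk in CPM and the percent of counts in genes under 1000 bases per library, with replicate numbers, where 4 Hz replicates 1, 3, and 4 lie at 16.8 to 44.6 CPM of Rn7sk and the controls at 2.22 to 8.13 CPM.

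The other 2 frequencies place these values. By the same fit, 0 genes (0.0%) differed between 4 and 1 Hz, although 1465 had an unadjusted p under 0.05 and DESeq2 called 1. Between 4 and 10 Hz 21.2% differed, 1414 higher and 1405 lower at 4 Hz. Irrespective of fold, 6163 of the 13315 tested genes differed from 10 Hz at an adjusted p under 0.05. Of the 153 changed genes named here by rule, 148 did so, but these were chosen by their change from the control. Il6 had 12.2 ± 3.78 CPM at 1 Hz and 4.23 ± 2.45 CPM at 10 Hz, with 4 Hz minus 10 Hz at 1.96 on the log2 scale (adjusted p = 1.65e-05). Ubtf had 86.2 ± 9.24 and 194 ± 17.4 CPM, and its 4 Hz libraries were lower than those at 10 Hz by a log2 difference of -1.48 (adjusted p = 1.46e-12). Foxo1 had 46.3 ± 3.86 and 29.7 ± 3.73 CPM, and Insig1 148 ± 16.9 and 79.2 ± 9.0 CPM. In all 4 genes the 10 Hz mean lay near the control mean and the 1 Hz mean on the side of 4 Hz. The 4 Hz minus 1 Hz difference of Foxo1 was 0.32 (adjusted p = 0.259) and that of Ubtf -0.31 (adjusted p = 0.259), so a difference was not detected with 6 libraries each.

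**Figure D5:**
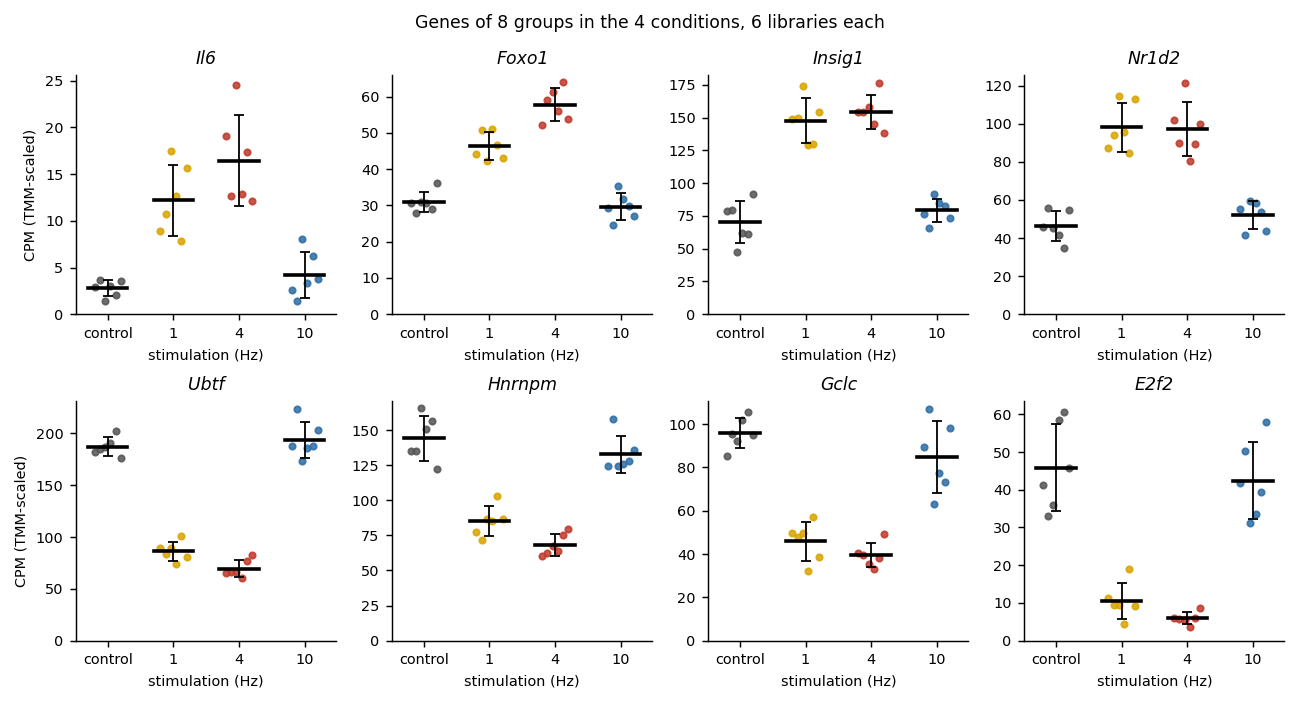
Level in CPM (vertical axes from 0) of 1 gene from each of 8 lists in control, 1, 4, and 10 Hz libraries, with 1 point per library, the mean as a line, and SD as error bars (6 libraries each). At 4 Hz Il6, Foxo1, Insig1, and Nr1d2 lie above and Ubtf, Hnrnpm, Gclc, and E2f2 below the controls, while 10 Hz libraries overlap with the controls in each panel.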

How the data were processed

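RNA of 24 tissues was sequenced, 6 per condition. The authors deposited an estimated count per gene from salmon, not normalized, and the TPM of each gene was deposited by the authors, divided by transcript length and scaled to 1000000 per library. Per the paper's methods, the nf-core/rnaseq pipeline and Ensembl annotation of GRCm39 were used. The submitters' processing notes name BWA 0.7.12-r1039, bedtools 2.25.0, STAR, and Salmon, and their role in these values is not given in the sources used here. In the files 6.15% of estimated counts were not whole (off by over 0.001).

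Estimated counts were rounded. The filter on low counts was filterByExpr, with a minimum count of 10 and a total of 15, and 1 fit of all 24 libraries was made in edgeR 4.0.16 (R 4.3.3) with TMM, robust quasi-likelihood F tests, and a mean per condition, so all conditions shared the estimate of spread (biological coefficient of variation 14.8%). Depth was compared by an exact permutation test. On simulated data for 4 Hz against control, edgeR recovered 99% of genes changed 2-fold and 79% of those changed 1.5-fold, with 10 false calls among 13208 genes. Only 200 genes were changed there, calls used the adjusted p alone, and 1 spread was set for all genes. The simulated libraries held no differences in short RNAs, so these rates do not carry over to the calls above. Gene positions, lengths, and GC content came from GENCODE M39, which held 99.9% of the tested identifiers.

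The genes and the 37 lists were chosen with earlier results of these data known. By rule, named genes were 10 per direction with the smallest p and 8 with the largest fold change among changed protein-coding genes whose groups were apart (average log2 CPM of at least 3 and 1), up to 4 changed members of each list by p, other list members whose role is described, and the myogenic factors and myosin heavy chains. List members were not used as independent evidence, and no set test was run. Alternatives were RLE or upper-quartile scaling, filters left out or set to 50 counts in 6 libraries, DESeq2 1.42.0 with and without apeglm 1.24.0, a fit of only these 2 groups, a block by replicate number, GC and length offsets (loess, span 0.3), limma 3.58.1 on log2(TPM + 1), centered or not, and log2(TPM + 0.1) for genes at 1 TPM in 6 libraries, other fold thresholds, and leaving out each library. The fit with 4 Hz replicates 2, 5, and 6 was added after seeing the data. Some genes of the lists are not reported here by name.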

Additional observations from a re-analysis of the deposited data

Results flagged for a closer look

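In 318 groups of 6 libraries of the named genes, 15 had 1 library far from the other 5. Chance flags about 1 in 20 groups, a rate close to the one found. In the controls, replicate 1 was high in 4 genes, Csrp3 (78.4 CPM, others 61.9 to 66.4), Mrln (3.02 CPM), Trib3 (153 CPM, others 105 to 118), and Nupr1 (138 CPM, others 114 to 118). Replicate 4 was high in Inka2 (10.4 CPM), replicate 6 in Foxo1 (36.3 CPM, others 27.9 to 31.0), and replicate 5 was low in E2f1 (13.6 CPM, others 15.9 to 17.2). At 4 Hz, replicate 4 was high in Mrpl23 (21.0 CPM), Nupr1 (231 CPM, others 162 to 187), and Rmrp (7.76 CPM, others 0.467 to 2.23). Replicate 6 was high in Cdca7 (1.90 CPM) and Myh2 (56.0 CPM, others 40.4 to 43.2) and low in Irs2 (15.8 CPM, others 32.2 to 37.5). Replicate 3 was high in 9130008F23Rik (5.15 CPM, others 3.31 to 3.99) and replicate 5 in Stard4 (93.5 CPM, others 68.4 to 77.1). Of these genes, Mrln lost its call when single libraries were left out, as the report states.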

How the results depend on the processing

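The count of 3344 changed genes, 1709 upregulated and 1635 downregulated, was 6842 (3664 and 3178) with no threshold on fold change and 601 (285 and 316) with a threshold of 1. With 4 Hz replicates 2, 5, and 6 only, 2085 were changed (858 upregulated). Limma gave 333 and 3166 on log2(TPM + 1), 386 and 3487 on log2(TPM + 0.1), and 1580 and 1060 after centering. Leaving out each library gave 3017 to 3645 changed, 1309 to 1867 upregulated, and 1530 to 1787 downregulated. The count between 4 and 1 Hz was 1 with DESeq2 and with the replicate block and 0 to 1 over left-out libraries, with 1 without 4 Hz replicate 6. The count between 4 and 10 Hz was 1501 with replicates 2, 5, and 6, 6163 with no fold threshold, and 460 with a threshold of 1. The TMM-scaled depth differed by -3606657 counts (exact permutation p = 0.03). On both TPM scales, +1 and +0.1, Myh1 (-0.27 and -0.27), Myh3 (-0.19 and -0.20), and Myh4 (-0.11 and -0.11) changed sign, scales on which the median of all genes lies at -0.21 and -0.24, while none of the named genes did after centering.

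Same-numbered control and 4 Hz libraries deviated with r from -0.13 to 0.10, with 0 of 6 pairs over 0.1. No pairing by number was detected, though such values cannot exclude a weak one. With the replicate block 3284 genes were changed (1635 upregulated and 1649 downregulated), and 0 of 6 controls correlated best with their own number.

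Of 37 lists, relative medians moved by more than the spread of replicates as follows. With GC and length offsets, without and with the replicate block, myogenic regulators were at -0.18 and -0.18, FoxO signalling at 0.48 and 0.48, fatty acid oxidation at 0.0193 and 0.0184, adhesion at -0.00806 and -0.00565, NRF2 targets at -0.16 and -0.16, splicing at -0.19 and -0.19, chromatin at -0.18 and -0.18, and with both together only the neuromuscular synapse at 0.0506 and RNAs without a poly(A) tail at -0.16. With 4 Hz replicates 2, 5, and 6, the citric acid cycle was at 0.0242, fatty acid oxidation at 0.0379, cytosolic ribosomal proteins at 0.28, ribosome biogenesis at -0.59, the proteasome at -0.14, ER chaperones at 0.23, adhesion at -0.0205, and the clock at 0.57. On log2(TPM + 1), centered or not, glycolysis was at 0.0806, ER chaperones at 0.24, hypoxia at 0.10 (0.13 on +0.1), the clock at 0.37, and myogenic regulators at -0.17 (also on +0.1). The strict filter gave -0.13 for the cell cycle and 0.82 for RNAs without a poly(A) tail, and apeglm 0.20 for interferon genes. The cause of these shifts was not tested.

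Of the 153 changed genes named by rule, 41 lost the adjusted p under 0.05 in at least 1 alternative. Among them were 24 and 25 on the uncentered TPM scales, 4 after centering, and 25 with replicates 2, 5, and 6. Genes that fell only below the fold threshold are not counted in the 41. When single libraries were left out, the adjusted p rose above 0.05 for Dnajb1, Epas1, Grb10, Mrln, Rn7s1, and mt-Nd1, with values in the report. Calls lost by the fold threshold alone are not listed. Depth and a coefficient of variation of 14.8% limit what can be seen in low genes.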
